A study of Rattus norvegicus with 2 samples.

Results

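The genes described here are 9 enzymes and regulators of branched-chain amino acid and lysine breakdown: Bckdha, Bckdhb, Dbt, Bckdk, Ivd, Mccc2, Hibadh, Aldh6a1 and Aass. They were taken by name, as every probe set whose single symbol in the platform annotation was one of them, which gave 10 probe sets among 15866, or 9 of 10411 genes with a single symbol. Aldh6a1 had 2 probe sets and the other 8 genes 1 each. No probe set annotated with several symbols named any of them. All 10 probe sets carried signals well above the median of their array on both arrays.

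Liver RNA had been hybridised to 2 rat oligonucleotide arrays, 1 for a high-fat diet and 1 for a low-fat diet. The rats were of the SD strain, described as 4 weeks old with 9 weeks of feeding, and both diets were based on AIN93G, a purified rodent diet. The labels do not state the fat content, the sex, the feeding state, the hour of collection or how many animals each RNA came from. Since each diet had a single array, no p-value is given, and every difference describes these 2 arrays and cannot be assigned to diet.

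Leucine, isoleucine and valine lose their amino group first, mostly outside the liver, and the resulting branched-chain 2-oxoacids are then committed to breakdown by the branched-chain 2-oxoacid dehydrogenase complex of the mitochondrial matrix. Bckdha and Bckdhb encode the alpha and beta subunits of its decarboxylase, E1, and Dbt encodes the acyltransferase core, E2. Bckdk encodes the kinase that phosphorylates E1 alpha and switches the complex off, while the phosphatase Ppm1k switches it on. After this step the paths part, with Ivd and Mccc2 on the leucine path and Hibadh and Aldh6a1 on the valine path. Lysine has its own entry enzyme, Aass, and is broken down largely in the liver.

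Promoter stretches of the genes at both ends of the range of ratios are shown so that what precedes their start sites can be read. Each is the 150 bases directly before the annotated start in RefSeq, build GRCr8, with GC boxes (GGGCGG) and CCAAT boxes (CCAAT), searched on both strands, in capitals. Bckdhb and Bckdk had the lowest ratios among the 7 genes with an entry, and Aldh6a1 and Aass the highest. Bckdha and Mccc2 had no entry.
Bckdhb (chr8:93725127-93725276, + strand): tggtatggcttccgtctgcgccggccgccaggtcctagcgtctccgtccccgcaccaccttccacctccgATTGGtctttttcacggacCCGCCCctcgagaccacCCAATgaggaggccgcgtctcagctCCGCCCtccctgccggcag
Bckdk (chr1:191945659-191945808, + strand): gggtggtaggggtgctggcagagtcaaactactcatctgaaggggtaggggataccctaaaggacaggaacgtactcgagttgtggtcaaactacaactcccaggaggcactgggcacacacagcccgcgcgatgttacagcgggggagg
Aldh6a1 (chr6:109829726-109829875, - strand): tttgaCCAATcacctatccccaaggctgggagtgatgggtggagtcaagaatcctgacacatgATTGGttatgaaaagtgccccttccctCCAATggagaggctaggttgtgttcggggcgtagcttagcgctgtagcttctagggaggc
Aass (chr4:52628812-52628961, - strand): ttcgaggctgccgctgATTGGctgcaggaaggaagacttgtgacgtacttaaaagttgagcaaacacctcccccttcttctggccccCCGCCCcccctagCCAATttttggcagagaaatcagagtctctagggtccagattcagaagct
The CCAAT box was found in 5 of the 7 stretches (Bckdhb, Dbt, Ivd, Aldh6a1 and Aass), against 23.5% of 33469 promoters of the same length and 27.5% of the 5525 that belong to genes measured here. A GC box was found in 4 (Bckdhb, Dbt, Hibadh and Aass), against 26% of all promoters and 53.6% of those of measured genes. No match overlapped another. The E-box letters CACGTG, the TATA box in the form TATAAA and the cyclic AMP response element TGACGTCA were absent from all 7 windows, and 3.74%, 8% and 1.36% of all promoters hold them, or 6.14%, 4.05% and 2.39% of those of measured genes. The stretch of Bckdk held none of the 5 motifs. The G and C content was 68% for Bckdhb, 58% for Bckdk, 52.7% for Aldh6a1 and 53.3% for Aass, against a median of 63.3% for measured genes. These matches are a description of the letters and not of binding.

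None of the 9 genes differed by as much as 1.5-fold between the arrays. Log2 ratios, with the high-fat array on top and centred on the median over 7864 measured probe sets, ran from -0.32 for Bckdha to 0.23 for Aass, with a median of 0.02 over the 10 probe sets that was -0.10 without centring. A probe set was measured when the average of its log2 signals was at or above the average of the arrays' log2 medians. These medians were signals of 14 on the high-fat and 15.7 on the low-fat array. By comparison, 9.8% of all measured probe sets were past 1.5-fold in either direction and 1.68% past 2-fold. In the range of signal that holds these genes, 5.29% were past 1.5-fold, so 0 of 10 probe sets is close to that background. In bulk liver, fewer cells of a type and less RNA per cell cannot be told apart.

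**Figure D1:**
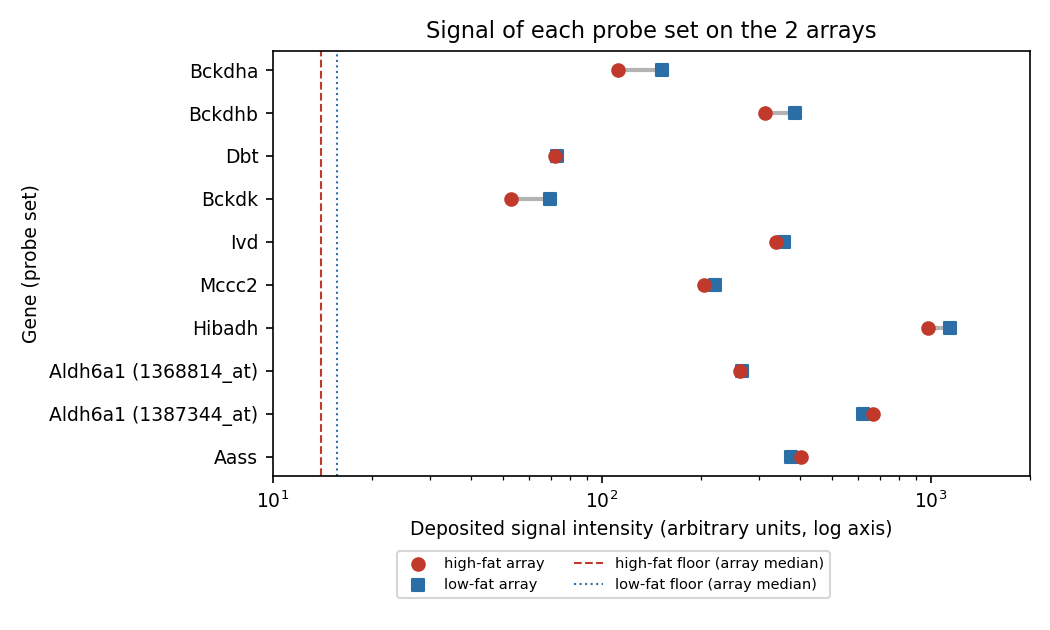
Deposited signal of each of the 10 probe sets on a log axis, with red circles for the high-fat array, blue squares for the low-fat array and vertical lines at the median of each array. Signals ran from 52.8 to 982.2 on the high-fat array and from 69.4 to 1146.5 on the low-fat array, and the widest gaps belong to Bckdha, Bckdk and Bckdhb.

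The centring sets the sign of the smallest ratios. Over all measured probe sets the uncentred log2 ratio had a median of -0.12, so that 66.2% were below 0 before centring, and 50% lie on each side after it. Of the 10 probe sets, 6 were above 0 and 4 below it after centring, whereas 2 were above and 8 below on the signals as deposited. With quantile normalization or loess correction the split was 5 and 5. Bckdha, Bckdk, Bckdhb and Hibadh were below 0 and Aass and the brighter Aldh6a1 probe set above 0 under all 5 scalings run. The other 4 probe sets (Dbt, Ivd, Mccc2 and the dimmer one of Aldh6a1) changed sign with the scaling.

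**Figure D2:**
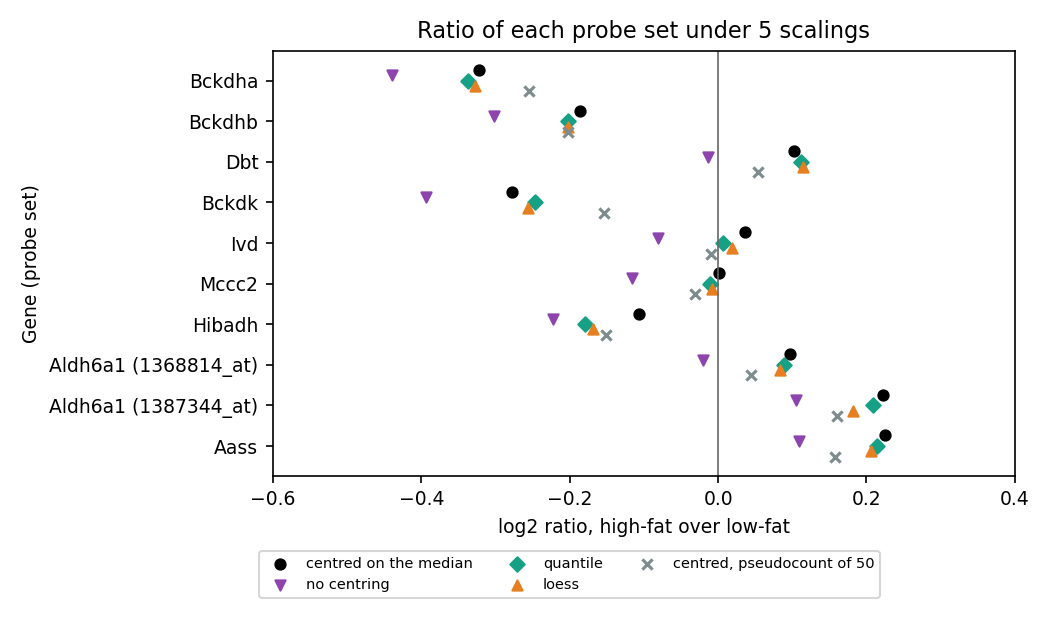
Log2 ratio (high-fat over low-fat, horizontal axis) for each probe set under 5 scalings, 1 marker per scaling. Bckdha stays between -0.44 and -0.26 and Aass between 0.11 and 0.23, while the markers of Dbt, Ivd, Mccc2 and the dimmer Aldh6a1 probe set lie on both sides of 0.

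The decarboxylase subunits had the lower ratios within the complex. Bckdha (probe set 1370897_at) had a signal of 112.2 on the high-fat array, against 152.1 on the low-fat array, which is 1.25-fold lower after centring. Bckdhb (1370906_at) was at 313.8 on the high-fat and 387 on the low-fat array, a log2 ratio of -0.19. Both were thus dimmer on the high-fat array, by 26.2% and 18.9% of the deposited low-fat signal. Among 787 probe sets of similar signal to Bckdha, 8.64% had a lower ratio, and among 786 similar to Bckdhb, 20.7% did.

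Dbt, the core to which E1 binds, did not share this difference. Its probe set, 1373201_at, read 72.2 on the high-fat array and 72.9 on the low-fat array, a log2 ratio of 0.10 that was -0.01 without centring. The difference between 2 log2 ratios is free of centring, and that of Bckdha minus that of Dbt was -0.43, or -0.45 with quantile normalization and -0.44 with loess. With a pseudocount of 50 it was smaller, at -0.31. For Bckdhb minus Dbt the difference was -0.29, or -0.26 with the pseudocount. Dld, the E3 dehydrogenase that the complex shares with its sister complexes, was at 115.8 on the high-fat and 113.3 on the low-fat array. Its log2 ratio was 0.15, or 0.03 without centring. The E1 subunits were therefore lower than E2 and E3 relative to the low-fat array, by amounts that no replicate bounds.

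Both enzymes that set the phosphorylation of the complex had negative ratios. For the kinase, Bckdk (1370842_at), the signal was 52.8 on the high-fat array and 69.4 on the low-fat array, a log2 ratio of -0.28 that was -0.15 with a pseudocount of 50 and -0.39 without centring. In its range of signal the robust SD of the ratio was 0.29, and 19.8% of 787 similar probe sets had a lower ratio. Ppm1k, the opposing phosphatase, read 155.9 on the high-fat and 211.4 on the low-fat array, a log2 ratio of -0.32. Kinase and phosphatase act against each other, and here both lay on the side of the E1 subunits.

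On the leucine path, the ratios of both genes were near 0, the median ratio of all measured probe sets. Ivd (1370232_at), the isovaleryl-CoA dehydrogenase that follows the complex, read 339.3 on the high-fat and 358.9 on the low-fat array, a log2 ratio of 0.04. Mccc2 (1377060_at), the beta subunit of the biotin-dependent 3-methylcrotonyl-CoA carboxylase, read 203.7 on the high-fat and 220.7 on the low-fat array, a log2 ratio of 0.001. Nearly equal shares of the 786 probe sets of similar signal to Mccc2 lay below it (49%) and above it (50.9%). Its partner subunit Mccc1 was at -0.11, with 95.5 on the high-fat and 111.9 on the low-fat array. Auh, the hydratase of the following step, had the lowest ratio of the other pathway genes, at -0.36, with 249 on the high-fat against 346 on the low-fat array.

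On the valine path the enzymes went both ways. Hibadh (1388118_at), which oxidises 3-hydroxyisobutyrate, read 982.2 on the high-fat array and 1146.5 on the low-fat array, a log2 ratio of -0.11 that was -0.18 with quantile normalization. Aldh6a1 encodes methylmalonate semialdehyde dehydrogenase, which takes up the product of Hibadh, and its 2 probe sets were both above 0 after centring. Probe set 1387344_at read 668.8 on the high-fat and 621.6 on the low-fat array, a log2 ratio of 0.22. The second, 1368814_at, read 263.5 on the high-fat and 267.2 on the low-fat array, a log2 ratio of 0.10 that was -0.02 without centring. The annotation lists both under the same source sequence, and their ratios differed by 0.13. The ratio of Hibadh minus that of the brighter Aldh6a1 probe set was -0.33. Hibch, the hydrolase that feeds Hibadh, had the highest ratio of the other pathway genes, at 0.37, with 87.7 on the high-fat and 73.5 on the low-fat array.

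At the entry of the lysine path, Aass (1377375_at), a fused reductase and dehydrogenase that makes and splits saccharopine, read 404.4 on the high-fat array and 375 on the low-fat array. Its log2 ratio of 0.23 was the highest of the 10 probe sets, and 17.3% of the 786 probe sets of similar signal had a higher one. The next enzyme, Aldh7a1, was at 0.01, with 1033.1 on the high-fat and 1114.2 on the low-fat array, and was at -0.11 without centring and -0.06 with quantile normalization. Aadat, the aminoadipate aminotransferase, was at -0.29, with 369.9 on the high-fat and 490.9 on the low-fat array. The lysine enzymes therefore did not share a direction.

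**Figure D3:**
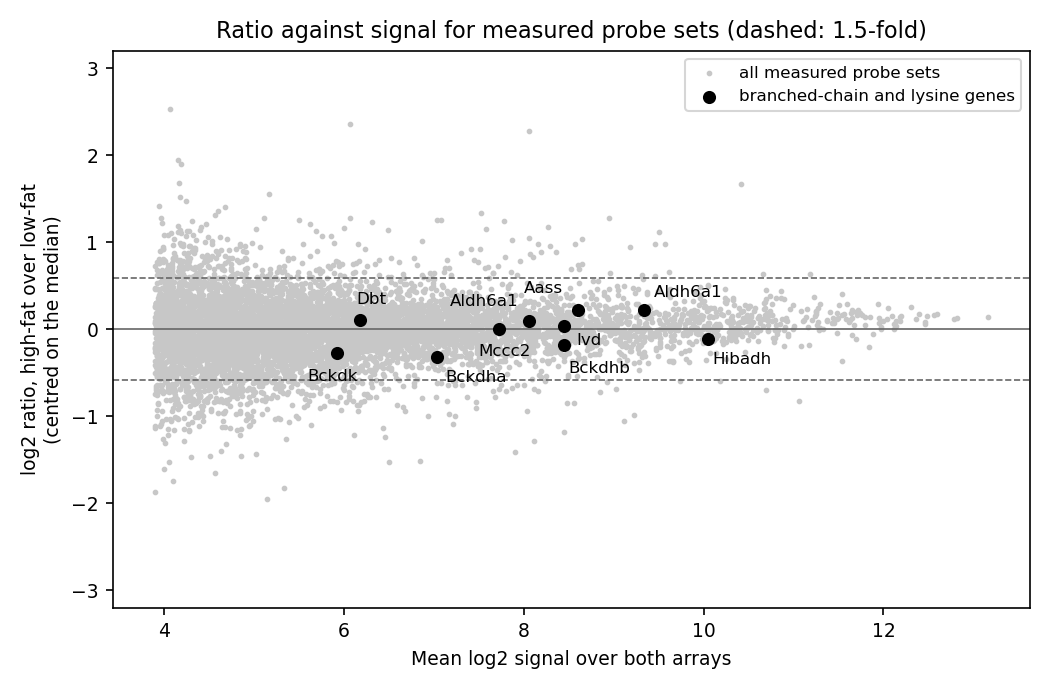
Centred log2 ratio against mean log2 signal for the 7864 measured probe sets (grey), with the 10 probe sets of branched-chain amino acid and lysine breakdown in black and dashed lines at 1.5-fold. All 10 black points lie between the dashed lines, from -0.32 for Bckdha to 0.23 for Aass.

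The size of these ratios can be set beside the disagreement between probe sets of a gene. In 248 genes with at least 2 measured probe sets in the range of signal of these genes, the difference between the ratios of the 2 brightest had an SD of 0.27 and a median size of 0.15. In 19.8% of these genes the difference was larger than the ratio of Bckdha. The ratios of Bckdha, Bckdk and Bckdhb, each from a single probe set, are thus within the range of these differences. Each difference carries the scatter of 2 probe sets of a gene on the same 2 arrays. Variation between animals or RNA samples that a gene's probe sets share is not in it. It therefore does not bound a single ratio.

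Other genes of the pathway had ratios from -0.36 to 0.37. Of 35 other genes listed for branched-chain and lysine breakdown, 28 had a probe set and 25 were measured, of which 12 were above 0 and 13 below it, with a median log2 ratio of -0.05. Without centring 9 were above and 16 below, and with quantile normalization 11 and 14. None of the 25 was past 1.5-fold, and no test was possible of that count. The share past 1.5-fold was 9.8% of all measured probe sets and 5.29% of those in the range of signal of the 9 genes. The 18 measured branched-chain genes had a median of 0.07 (without centring, -0.05), and the 7 lysine genes one of -0.06 (-0.18 without centring and -0.10 with quantile normalization). Of the 18, 10 were above 0 and 8 below. Among the 10 were Echs1 (0.09), Hadh (0.27), Hadha (0.12), Acaa2 (0.13) and Acat1 (0.16). These enzymes also serve fatty acid oxidation or ketone body metabolism, so the median of 0.07 is not one of branched-chain breakdown alone. No median was taken without them. Besides Hibch, the highest of the 25 were Hadh, the short-chain hydroxyacyl-CoA dehydrogenase, at 0.27, Mmaa, which serves the cobalamin cofactor of methylmalonyl-CoA mutase, at 0.25, and the transcription factor gene Klf15 at 0.16. Besides Auh, Ppm1k and Aadat, the lowest was Tmlhe, a trimethyllysine dioxygenase of carnitine synthesis, at -0.32. Acadsb, the dehydrogenase of the isoleucine path, was at -0.15.

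The first step of branched-chain breakdown was not measurable on these arrays. Bcat2, the mitochondrial branched-chain aminotransferase, read 6.1 on the high-fat and 1.5 on the low-fat array, below the medians of the arrays. The brighter of 2 probe sets for the cytosolic form, Bcat1, read 8.7 on the high-fat and 12.6 on the low-fat array, also below them. No ratio is given for values below these floors. As background, liver is known for weak transamination of branched-chain amino acids.

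Related lists are given for scale only, since no test was possible. The sister 2-oxoacid dehydrogenase complexes, with their kinases and phosphatases, had 12 measured genes from -0.43 (Ogdh) to 0.15 (Dld), a median of -0.05 and 0 past 1.5-fold. Of these, Dld, Dlst and Dhtkd1 are also counted among the other pathway genes above. Genes of other amino acid breakdown had 28 measured members, a median of 0.08 that was -0.01 with quantile normalization, and a wider range, from -0.98 for the aminotransferase gene Got1 to 1.28 for the kynureninase gene Kynu. In that list 6 of 28 were past 1.5-fold, beside 9.8% of all measured probe sets. One of the 6, Asrgl1, named after its values were seen, was at 0.89 on the probe set used, with 38.4 on the high-fat and 22.4 on the low-fat array. Its other measured probe set was at -0.84, with a signal of 12.7 on the high-fat array, below the floor there.

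**Figure D4:**
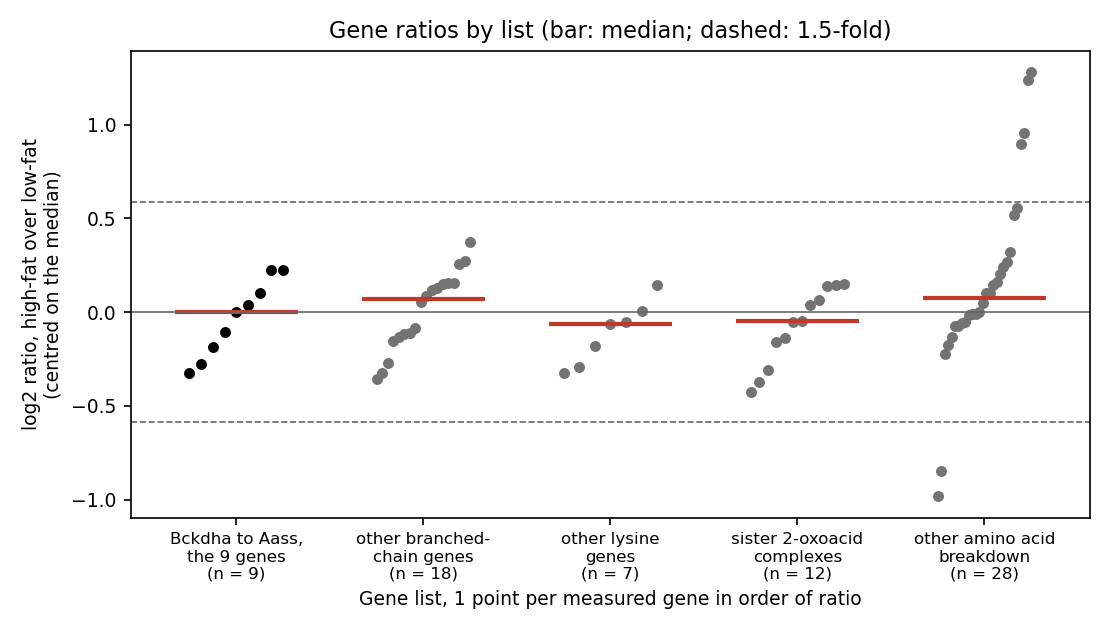
Centred log2 ratio of each measured gene in 5 lists, 1 point per gene in order of ratio, with red bars at the medians and dashed lines at 1.5-fold. The 9 genes and the other branched-chain, lysine and sister complex genes lie between -0.43 and 0.37, and those of other amino acid breakdown between -0.98 and 1.28. Dld, Dlst and Dhtkd1 are plotted both among the other branched-chain or lysine genes and among the sister complexes. Over all measured probe sets 9.8% were past 1.5-fold, and 5.29% of those in the range of signal of the 9 genes.

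Both samples had the markers of liver. All 9 hepatocyte markers with a probe set were measured, with log2 ratios from 0.03 to 0.27 (5 of 9 above 0 without centring) and summed signals of 37240 on the high-fat and 36668 on the low-fat array. The 6 skeletal muscle and 5 kidney markers, from tissues that also use branched-chain amino acids, were all below the floors. Of 5 adipocyte markers with a probe set, 2 were measured. Cfd read 54.5 on the high-fat and 58.4 on the low-fat array, and Lpl 15.9 on the high-fat and 16.9 on the low-fat array. Of 3 endothelial markers with a probe set, 1 was measured, Kdr, at 192.9 on the high-fat and 214.2 on the low-fat array. Among 3 measured stellate cell and fibroblast markers of 6, the ratios were -1.06 (Col1a2, below the floor on the high-fat array) to -0.25, with the second measured probe set of Col1a2 at 0.07, and the summed signals 251.8 on the high-fat and 355 on the low-fat array. The 3 macrophage markers with a probe set, summing to 403.9 on the high-fat and 421.2 on the low-fat array, were between 0.01 and 0.18. The part of other cell types in the ratios above was not tested.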

How the data were processed

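The deposited table holds 1 intensity for each probe set on each array. It was taken as linear from its values, and the authors' summarisation and scaling are not stated in the labels. Probe sets were named from the platform annotation, with symbols updated through the RefSeq gene table of assembly GRCr8. Of 15923 probe sets, 57 controls and, for ratios, 4 with a 0 were left out. Ratios were log2 with no pseudocount, and loess used a span of 0.3. Signal ranges were 10 equal bins of measured probe sets. Where a gene of a list had several measured probe sets, the brightest was used. All 10 probe sets are named, with the 4 highest and lowest other pathway genes and direct partners. The genes and lists were chosen with earlier results of these data known. The ratio steps were tested on simulated data. Precision is limited by having 1 array per diet. Python 3.11.15, numpy 2.4.6, pandas 2.3.3 and statsmodels 0.14.6 were used.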

Additional observations from a re-analysis of the deposited data

How the results depend on the processing

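The number of the 10 probe sets above 0 was 6 after centring and 2 without it. It was 4 to 6 under quantile normalization, loess, a pseudocount of 50, floors at the 25th and 75th percentiles and removal of probe sets named as cross-hybridising, and 5 of 9 with 1 probe set per gene. No probe set was past 1.5-fold under any of these, all 10 stayed measured at both other floors, and their median log2 ratio lay between -0.10 and 0.03. Over all probe sets, 771 of 7864 were past 1.5-fold, against 79 with the pseudocount, 2366 with the floor at the 25th percentile and 214 with it at the 75th, where 11565 and 3950 were measured. Each of the 10 ratios and of the 25 other pathway ratios moved by less than the robust SD of its range of signal under no centring, quantile normalization, loess and the pseudocount. No paired analysis was possible because each diet had 1 array. Background was not measured. Of the 10 probe sets, those of Bckdk and Dbt lay closest to the high-fat floor, at 3.77 and 5.16 times it, and Tmlhe, with a signal of 25, lay closer still.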

Other observations

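The regulators of the sister complexes had ratios on both sides of 0 after centring. None of their measured probe sets was above 0 without it, where 66.2% of all measured probe sets were below 0. The genes given here were chosen after their values were seen. Pdk2, a kinase that switches off pyruvate dehydrogenase, had log2 ratios of -0.31 and -0.44 on its 2 measured probe sets, with signals of 300.8 and 74 on the high-fat array and 403.2 and 108.8 on the low-fat array. Pdk1, another such kinase, was at -0.37 on its brighter probe set and at 0.09 on the other, which was -0.02 without centring. Pdk4 was at -0.05. The phosphatase genes Pdp1 and Pdp2, whose products oppose these kinases, were at -0.16 and 0.04, the second being -0.08 without centring. Pdha1, the alpha subunit of the pyruvate dehydrogenase E1 and so the counterpart of Bckdha, was at -0.14 and -0.04, and Pdhb, the counterpart of Bckdhb, at 0.14. No replicate bounds any of these values.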
